A study of Disanthus cercidifolius subsp. longipes with 9 samples.

Results

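Genes of the auxin pathway were followed in leaves of Disanthus cercidifolius var. longipes, a relic deciduous shrub, at the stages F1 (young), F2 (near-mature) and F3 (mature). The set was chosen by name: a transcript cluster, the unit of the deposited table, is included if its first Swiss-Prot match is named as an auxin-responsive or auxin-induced protein, an auxin response factor, an indole-3-acetic acid-amido synthetase or indole-3-acetic acid-induced protein, an auxin transporter, an auxin efflux carrier or an auxin-binding protein. This gave 113 of the 24385 clusters in the table. They are 25 Aux/IAA repressors, 25 auxin response factors (ARF), 41 small auxin up RNA proteins (SAUR), 7 GH3 amido synthetases, 6 influx carriers (AUX/LAX), 7 efflux carriers (PIN) and 2 auxin-binding proteins. The KEGG ortholog in the table is that of the same family for 110 of the 113.

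Each stage has 3 RNA-seq libraries of whole leaves, and no treatment or genotype differs between the stages. According to the study's methods, the leaves were the uppermost ones of sunny-side branches of nursery plants grown from stem cuttings. F1 leaves were unfolded with an immature inner structure, F2 leaves had just reached full area, and F3 leaves were fully mature. Leaves came from 3 trees, but no source ties a library to a tree, so p-values measure the spread between these libraries. The labels date the stages to 20, 23 and 26 July, whereas the methods place them a month apart in spring and early summer, so the time between stages is uncertain. Stage, season and collection day cannot be told apart.

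Auxin promotes the growth, vein patterning and early differentiation of leaves. It joins the F-box receptor TIR1 to an Aux/IAA repressor, which is then degraded, and the ARF transcription factors that the repressor held are released to act on early genes such as SAUR, GH3 and Aux/IAA genes themselves. Influx carriers of the AUX1/LAX family take auxin into cells and PIN proteins export it, which sets up the directional flow along which veins form.

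Levels are given as FPKM, fragment counts scaled to length and to library size. The deposited FPKM did not follow counts over the printed cluster length evenly. At F1, Cluster-35187.5 (306 bases, 323 fragments) had a mean of 93.9 FPKM and Cluster-53883.0 (2367 bases, 3835 fragments) 56.9 FPKM. Levels of different clusters, and the sums and rankings built on them, are therefore approximate. Counts over the table were 8657054 to 14284676 per library, and counts and FPKM together put 18.5 M to 27.5 M fragments in each library. The table's share of them was 51.5% ± 0.2 in F1 leaves, 51.9% ± 0.1 in F2 leaves and 43% ± 0.2 in F3 leaves (SD, n = 3). The test of each comparison was edgeR's quasi-likelihood test. A cluster is said to have risen or fallen if its Benjamini-Hochberg adjusted p over the table was below 0.05 and it changed at least 2-fold. Fold changes are log2 values of the later over the earlier stage with their standard error. The table holds only clusters that the authors had called in some comparison, so the shares of called clusters are high throughout and are given beside those of the auxin clusters. The median log2 fold change of the whole table was 0.17 between F1 and F2, 0.00 between F1 and F3 and -0.37 between F2 and F3. RLE scaling shifted fold changes by -0.17 between F1 and F2 and by 0.18 between F2 and F3, and library sizes implied by FPKM shifted them by 0.12 between F1 and F3 and by 0.16 between F2 and F3. Clusters share a number before the point in 15 cases, which hold 68 of the 113 auxin clusters. Read sharing among them was not tested. Values of single clusters are therefore uncertain, and summed FPKM is given as well.

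The summed level of the 113 auxin clusters was lower at each later stage. It was 5756 to 6459 FPKM at F1, 2484 to 2553 FPKM at F2 and 1187 to 1208 FPKM at F3, and the ranges of the 3 stages lie far apart. The 2 auxin-binding protein clusters held 52.2% of this sum at F1 and 6.76% at F3. Without them the sum was 2776 to 3082 FPKM at F1, 2033 to 2081 FPKM at F2 and 1105 to 1128 FPKM at F3. The level was highest at F1 for 65 of the 113 (57.5%), at F2 for 23 and at F3 for 25, whereas 30.3% of the table had its highest level at F1. Of the 7 role groups, the ARF group alone had its highest sum at F3, with 106 to 131 FPKM at F1, 169 to 178 FPKM at F2 and 279.7 to 285 FPKM at F3, and the GH3 sum was highest at F2, as the plot of summed FPKM by role shows. In whole leaves, fewer cells of a type and less RNA per cell cannot be told apart.

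**Figure D1:**
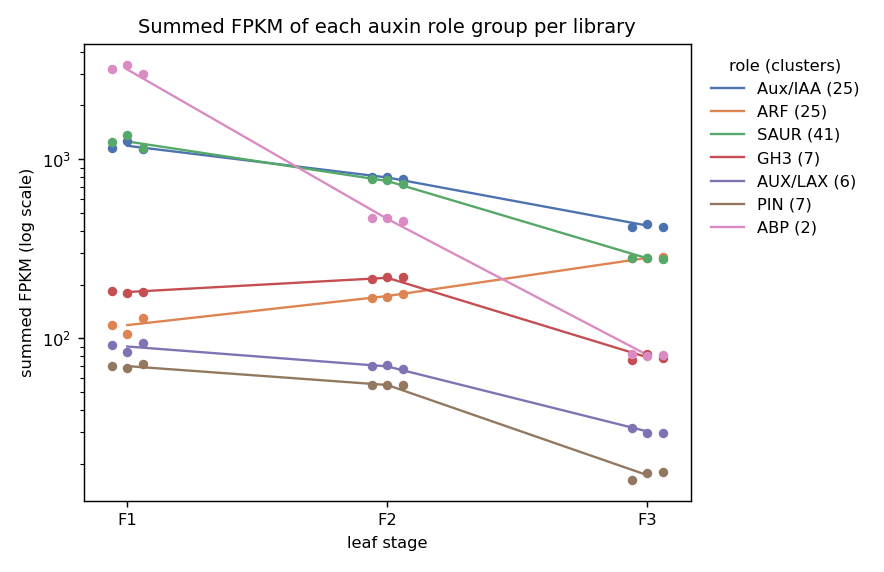
Summed FPKM (log axis) of the clusters of each role group in each of the 3 libraries of F1, F2 and F3; points are libraries and lines join the stage means. Aux/IAA, SAUR, AUX/LAX, PIN and auxin-binding protein sums were lower at each later stage, GH3 was highest at F2 (mean 218 FPKM), and ARF was highest at F3 (mean 282 FPKM).

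Between F1 and F2, 15 auxin clusters rose and 33 fell, 42.5% of the 113 against 40.8% called over the table. The split was 13.3% up and 29.2% down, against 22% up and 18.8% down in the table. Between F1 and F3, 25 rose and 69 fell, 83.2% against 69.7%, with 61.1% down against 34.7% and 22.1% up against 35.0%. Between F2 and F3, 20 rose and 61 fell, 71.7% against 65.3%, with 54.0% down against 35.8% and 17.7% up against 29.5%. The table's own balance depends on scaling. With RLE scaling it turned over, to 4330 clusters up and 5316 down between F1 and F2 (5361 and 4594 with TMM) and to 7898 up and 7672 down between F2 and F3 (7184 and 8739 with TMM). The auxin clusters then had 13 up and 37 down between F1 and F2 and 23 up and 55 down between F2 and F3, so that falls outnumbered rises under both scalings. The median log2 fold change of the 113 was -0.50, -1.77 and -1.40 in the same order, and -0.50, -1.77 and -1.23 with clusters at 0 counts in a stage set to their bound. The 3 comparisons share libraries and are given side by side. Shares depend on the many clusters of a few numbers. With the counts of all clusters of a number summed, 8 of 60 numbers rose and 16 fell between F1 and F2. Between F1 and F3, 9 rose and 37 fell, and between F2 and F3, 10 rose and 37 fell. These sums take in clusters outside the auxin set. In the number of Cluster-9532.17, for example, 1 of 73 clusters is an auxin cluster. The matching shares over all numbers of the table are not given.

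**Figure D2:**
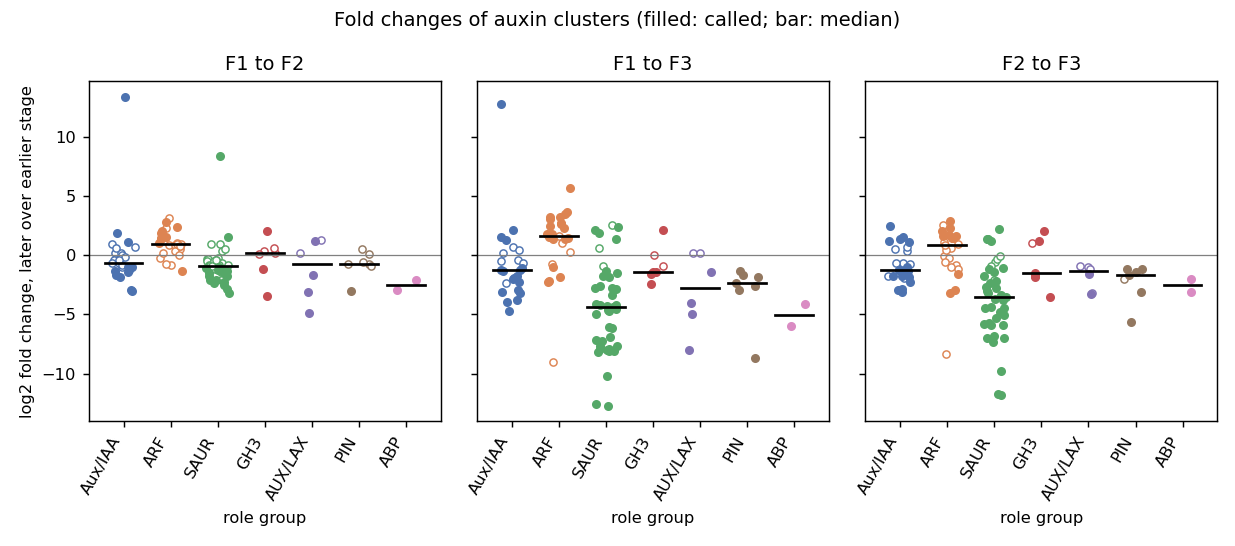
Log2 fold change of each auxin cluster by role group in the comparisons F1 to F2, F1 to F3 and F2 to F3; filled points were called, open points were not, and the bar is the group median. Between F1 and F3 the ARF median was 1.63 and the SAUR median -4.39; fitted values of clusters at 0 counts in a stage, such as the Aux/IAA point at 13.44 (F1 to F2), depend on edgeR's prior count and are not estimates of size.

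Aux/IAA proteins are the short-lived repressors that auxin removes. Of their 25 clusters, 3 rose and 9 fell between F1 and F2 (12% and 36%), 4 rose and 14 fell between F1 and F3 (16% and 56%), and 5 rose and 12 fell between F2 and F3 (20% and 48%), with medians of -0.63, -1.28 and -1.21. The shares that fell were above those of the table (18.8%, 34.7% and 35.8%) in each comparison. Their summed level was 1138 to 1273 FPKM at F1, 779 to 799.9 FPKM at F2 and 421 to 438 FPKM at F3. The most abundant one matched IAA14 (Cluster-42586.0), which restrains lateral root formation in Arabidopsis. It stood at 350.1, 378 and 340.2 FPKM at F1, 182, 179 and 170.4 FPKM at F2 and 28.5, 27.1 and 27.9 FPKM at F3. The stages did not overlap, and the fall was -3.80 ± 0.071 (adjusted p = 5.73e-10) between F1 and F3, most of it after F2 (-2.83 ± 0.068, adjusted p = 3.4e-09), while the F1 to F2 difference of -0.97 ± 0.063 (adjusted p = 3.3e-06) was just under 2-fold. An IAA27 match (Cluster-50854.1) had the same order, with 109.6, 117 and 103 FPKM at F1, 68.7, 71 and 66.8 FPKM at F2 and 16.5, 16.3 and 15.4 FPKM at F3. Its log2 fold change was -2.90 ± 0.081 (adjusted p = 4.98e-09) between F1 and F3 and -0.63 ± 0.075 (adjusted p = 0.000138) between F1 and F2, the latter under 2-fold. The other IAA27 match of this number, Cluster-50854.0, was picked after its values were seen. It fell between F1 and F2 (-1.82 ± 0.10, adjusted p = 1.46e-06), with means of 70.9, 19.6 and 31.9 FPKM at F1, F2 and F3. The sum of both was 170 to 193 FPKM at F1, 85.6 to 90.6 FPKM at F2 and 45.3 to 49.7 FPKM at F3.

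The IAA16 matches did not move as one. Cluster-35610.10 stood at 202, 237 and 210.5 FPKM at F1, 86, 92.2 and 82.5 FPKM at F2 and 26.6, 28.3 and 25.6 FPKM at F3 and fell at each step (-1.27 and -1.86). Cluster-35610.4, of the same number, had 0 FPKM in each library at F1, 47.6, 42.7 and 47.5 FPKM at F2 and 29.3, 35.3 and 33.4 FPKM at F3. No fragment was counted for it at F1, so it was at least 445-fold higher at F2, against a floor of 3 counts per library, and at least 282-fold higher at F3. Summed over the number, IAA16 was 202 to 237 FPKM at F1, 130 to 135 FPKM at F2 and 55.9 to 63.6 FPKM at F3, lower at each later stage, without the switch between the single clusters. This number also holds 4 clusters named for other proteins, so it may not be one gene. Another IAA16 match (Cluster-34224.0) was highest at F2, with 80.5, 78.8 and 76 FPKM at F1, 148, 146 and 147 FPKM at F2 and 61.4, 68.2 and 65 FPKM at F3. Its F1 to F2 difference of 0.95 ± 0.069 (adjusted p = 6.25e-06) was just under 2-fold, and it fell between F2 and F3 (-1.34 ± 0.07, adjusted p = 3.02e-07).

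A few Aux/IAA clusters were highest in mature leaves or turned at F2. AUX22 (Cluster-38733.0), a name from soybean, peaked at F2 with 5.89, 5.45 and 6.99 FPKM at F1, 19.6, 24.9 and 21.7 FPKM at F2 and 11.8, 9.5 and 10.4 FPKM at F3, a rise of 1.90 ± 0.15 (adjusted p = 1.27e-05) and a fall of -1.23 ± 0.15 (adjusted p = 9.2e-05). IAA29 (Cluster-24890.0) had the opposite course with 8.22, 7.93 and 6.66 FPKM at F1, 2.52, 4.24 and 4.28 FPKM at F2 and 10.6, 9.76 and 7.39 FPKM at F3. Its fall of -1.0002 ± 0.25 (adjusted p = 0.00947) lies at the threshold and was under 2-fold without F1 replicate 1 (-0.96), F1 replicate 2 (-0.94) or F2 replicate 1 (-0.79), and its later rise of 1.159 ± 0.25 (adjusted p = 0.003) was under 2-fold (0.95) without F2 replicate 1. Another IAA29 match, Cluster-32335.0, picked after its values were seen, had no low at F2. Its means were 3.81, 3.30 and 1.11 FPKM at F1, F2 and F3, and it fell after F2 (-1.74 ± 0.30, adjusted p = 0.000882). The 4 clusters that rose between F1 and F3 were Cluster-35610.4 and matches of IAA11, IAA12 and IAA13, and these last 3, outside the naming rule, were picked after their values were seen. IAA12 (Cluster-45628.0), the repressor paired with ARF5 in the Arabidopsis embryo, stood at 17.4, 19.4 and 13.1 FPKM at F1, 19, 17.4 and 17.2 FPKM at F2 and 55.4, 52.6 and 46.2 FPKM at F3, so its F1 and F2 libraries overlapped and all F3 libraries lay above them. The IAA13 matches of one number parted: Cluster-38948.0 rose by 1.29 between F1 and F3 and Cluster-38948.1 had a log2 fold change of -3.93, while their sum was 25.5 to 30.1 FPKM at F1, 21.5 to 21.8 FPKM at F2 and 38.6 to 45.3 FPKM at F3.

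Auxin response factors bind auxin response elements in promoters. In this group 8 clusters rose and 1 fell between F1 and F2 (32.0% up and 4% down), 16 rose and 4 fell between F1 and F3 (64% and 16%), and 9 rose and 3 fell between F2 and F3 (36% and 12%). The table had 22%, 35.0% and 29.5% up and 18.8%, 34.7% and 35.8% down in the same order. The 36% up between F2 and F3 is thus near the table's share. In all, 36%, 80% and 48% of the ARF clusters were called, against 40.8%, 69.7% and 65.3% of the table. The medians were 0.95, 1.63 and 0.89. Only 8 numbers stand behind the 25 clusters, and 14 of the 16 that rose between F1 and F3 belong to 2 of them, one of which matches ARF15 and ARF3. With clusters counted by number, 4 of the 8 held a cluster that rose between F1 and F3 and 4 one that fell. In the table, 6026 of 14454 numbers held one that rose and 6367 one that fell. Counted this way, the ARF group is near the table.

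One number matches ARF15 and ARF3, and most of its clusters rose between F1 and F3. ARF3 (ETTIN) helps to set the lower leaf side in Arabidopsis. The most abundant of the 10 clusters (ARF15, Cluster-56686.4) had 4.92, 3.78 and 4.83 FPKM at F1, 4.71, 4.27 and 6.34 FPKM at F2 and 24.6, 25.8 and 32.5 FPKM at F3. F1 and F2 overlapped and F3 lay far above both, with a rise of 2.5 ± 0.17 (adjusted p = 1.72e-06) between F1 and F3 and 2.28 ± 0.17 (adjusted p = 3.67e-06) between F2 and F3. In all, 9 of the 10 clusters rose between F1 and F3, among them Cluster-56686.7 by 2.64 ± 0.41 (adjusted p = 0.000373), and the sum was 14.2 to 16.1 FPKM at F1, 20.9 to 22.9 FPKM at F2 and 72.8 to 76 FPKM at F3.

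Other response factors went different ways. ARF4, which acts with ARF3 in Arabidopsis leaves, was led by Cluster-44437.12 with 19.3, 17.5 and 18 FPKM at F1, 17.3, 14.9 and 14.3 FPKM at F2 and 5.03, 5.2 and 6.67 FPKM at F3. It fell after F2 (-1.62 ± 0.12, adjusted p = 2.95e-06), whereas 4 minor clusters of that number rose between F1 and F2, and the sum of the 5 was 21.9 to 24.8 FPKM at F1, 22.3 to 25.5 FPKM at F2 and 12 to 12.9 FPKM at F3. In Cluster-44437.4, the most abundant of the 4, only the counts rose (282 fragments at F1 and 597 at F2). Its FPKM overlapped between these stages, with means of 4.19 and 4.42. The 2 ARF18 matches have different numbers. Cluster-39812.0 rose to F2, with 9.56, 9.58 and 10.8 FPKM at F1, 25.6, 26.5 and 25.4 FPKM at F2 and 29.6, 26.3 and 29.6 FPKM at F3, a log2 fold change of 1.42 ± 0.062 (adjusted p = 3.1e-07) and then -0.048 ± 0.06 (adjusted p = 0.478). The other, Cluster-35638.0, stood at 6.03, 5.41 and 7.47 FPKM at F1, 11, 11.8 and 11.8 FPKM at F2 and 1.48, 1.21 and 1.54 FPKM at F3 and fell after F2 (-3.20 ± 0.13, adjusted p = 7.37e-08). Like it, the matches of ARF11, ARF5 and ARF8 were picked after their values were seen. ARF11 (Cluster-57692.1) fell after F2 (-2.93 ± 0.091, adjusted p = 1.32e-08). ARF5 (MONOPTEROS), an activator needed for vein formation in Arabidopsis, was the 1 response factor that fell between F1 and F2 (Cluster-28696.0, -1.30 ± 0.15, adjusted p = 0.000121). ARF8, another activator, fell between F1 and F3 (Cluster-19182.1, -1.02 ± 0.17, adjusted p = 0.000507).

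**Figure D3:**
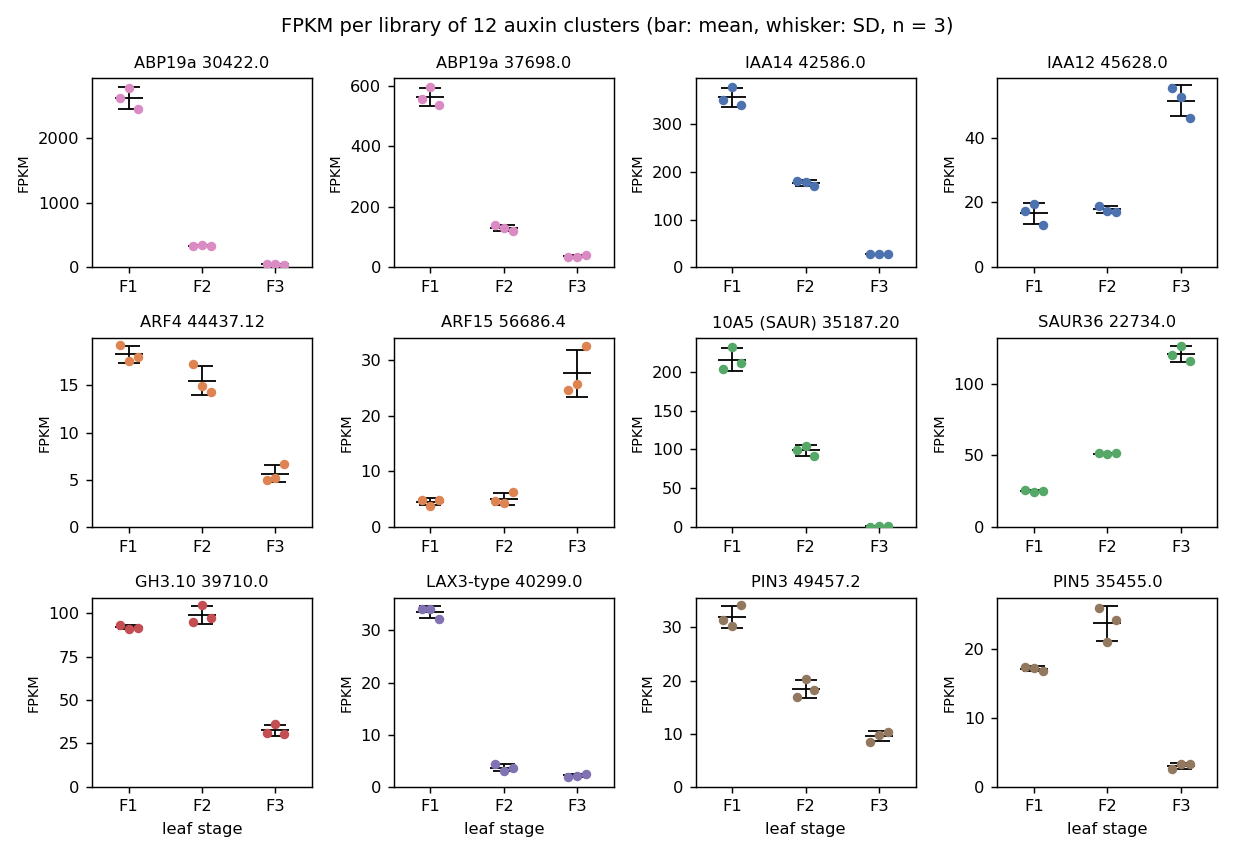
FPKM in each library (points) of 12 auxin clusters at F1, F2 and F3, with the stage mean (bar) and SD (whisker, n = 3); each panel has its own linear axis from 0. ABP19a, IAA14, the SAUR match 10A5, ARF4, the LAX3-type carrier and PIN3 were highest at F1, GH3.10 and PIN5 at F2, and IAA12, ARF15 and SAUR36 at F3.

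SAUR proteins are small products of early auxin-response genes, and several promote cell expansion in Arabidopsis. Of the 3 large groups (Aux/IAA, ARF and SAUR) they had the highest share of clusters that fell between F1 and F3. Of 41 clusters, 2 rose and 15 fell between F1 and F2 (4.88% and 36.6%), 4 rose and 34 fell between F1 and F3 (9.76% and 82.9%), and 4 rose and 32 fell between F2 and F3 (9.76% and 78.0%). Medians were -0.90, -4.39 and -3.48, or -0.90, -4.19 and -3.02 with clusters at 0 counts in a stage set to their bound. Over the whole table, the shares that fell were 34.7% between F1 and F3 and 35.8% between F2 and F3. By number, 4 of 15 held a cluster that rose between F1 and F3 and 11 one that fell, against 6026 and 6367 of 14454 numbers in the table. The summed level of 8 markers of dividing cells had means of 13.5, 2.10 and 1.27 FPKM at F1, F2 and F3, so most of its drop came before F2. Between F2 and F3, 2 of the 8 fell and 1 rose (25% down, against 35.8% of the table). The part of these markers in the SAUR result was not tested.

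A single number, that of Cluster-35187.20, holds 19 of the 41 SAUR clusters, named for the soybean proteins 10A5, 15A and X10A, the mung bean protein ARG7 and the Arabidopsis proteins SAUR21, SAUR23 and SAUR27. Between F1 and F3, 18 of them fell, and between F2 and F3 all 19 did. Their summed level was 827 to 985 FPKM at F1, 457 to 482 FPKM at F2 and 8.25 to 15.1 FPKM at F3, so nearly all of it was gone at F3. The leading one (10A5, Cluster-35187.20) stood at 203, 232 and 211 FPKM at F1, 99.5, 105 and 91.3 FPKM at F2 and 0.55, 0.84 and 1.18 FPKM at F3, with -8.05 ± 0.18 (adjusted p = 1.25e-09) between F1 and F3. Its F1 to F2 fall of -1.08 ± 0.11 (adjusted p = 5.5e-05) was just under 2-fold (-0.98) without F1 replicate 2. ARG7 (Cluster-35187.18) had 176, 198 and 140.1 FPKM at F1, 98.8, 92.4 and 81.5 FPKM at F2 and 1.57, 0 and 0.37 FPKM at F3 and fell after F2 (-7.29 ± 0.47, adjusted p = 1.25e-06).

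Of the abundant clusters of this number, 3 had no fragment at F3. X10A (Cluster-35187.4) stood at 126, 129 and 107 FPKM at F1, 72.1, 72 and 67.7 FPKM at F2 and 0 FPKM in each library at F3, at least 269-fold lower at F3 than at F1 against the floor of 3 counts per library. A second X10A match (Cluster-35187.9) had 95.4, 97.1 and 85.2 FPKM at F1, 43.5, 44.2 and 43.2 FPKM at F2 and 0 FPKM in each library at F3, at least 299.5-fold lower at F3. Its change between F1 and F2 (-1.03 ± 0.11, adjusted p = 0.000251) dropped under 2-fold without F1 replicate 2 (-0.96). SAUR21 (Cluster-35187.23), of a subfamily that promotes cell expansion in Arabidopsis, had 39.4, 36.9 and 36.8 FPKM at F1, 28, 27.4 and 24.8 FPKM at F2 and 0 FPKM in each library at F3, at least 50.2-fold lower at F3. Cluster-35187.13, also X10A, kept 2 fragments over the 3 F3 libraries, against 600 at F1, a ratio of 327 (counting interval 90.1 to 2705, 95%, counting error only). One cluster of the number departed from this order: an ARG7 match (Cluster-35187.19) had 0 FPKM in each library at F1, 20.4, 14.7 and 22.4 FPKM at F2 and 1.12, 0 and 0 FPKM at F3. It was uncounted at F1 and at least 13.6-fold higher at F2.

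The other 22 SAUR clusters were split. Between F1 and F3, 4 rose and 16 fell (18.2% and 72.7%), with a median log2 fold change of -2.82. Their summed level was 333 to 385 FPKM at F1, 275 to 291 FPKM at F2 and 263 to 274 FPKM at F3. This sum hides the fall of most of the 22, because it includes 2 SAUR36 matches that rose. Their means were 25.2 and 11.4 FPKM at F1 and 121 and 64 FPKM at F3. SAUR50 (Cluster-45778.0) stood at 39.2, 45 and 39.4 FPKM at F1, 10.5, 9.22 and 8.36 FPKM at F2 and 0.39, 0.31 and 0.41 FPKM at F3 and fell at each step (-2.09 ± 0.13, adjusted p = 2.19e-06 and -4.82 ± 0.18, adjusted p = 3.24e-08). Matches of SAUR67, a member of a tandem group in Arabidopsis, were nearly uncounted at F3. Of these, Cluster-54180.5 stood at 5.44, 8.09 and 6.31 FPKM at F1, 1.45, 1.24 and 1.15 FPKM at F2 and 0, 0 and 0.08 FPKM at F3. Cluster-51899.1 had 8.48, 7.56 and 8.41 FPKM at F1, 2.78, 1.08 and 1.51 FPKM at F2 and 0, 0 and 0.08 FPKM at F3. Both fell at each step, and in each a single fragment was counted at F3. Cluster-51899.0 had 6.65, 7.5 and 4.72 FPKM at F1, 1.64, 1 and 1.04 FPKM at F2 and 0, 0.57 and 0 FPKM at F3, and its calls were less stable: the F1 to F2 fall (-2.27 ± 0.72, adjusted p = 0.0268) lost significance without F1 replicate 1 (adjusted p = 0.0585), F1 replicate 2 (0.0769), F2 replicate 2 (0.0804) or F2 replicate 3 (0.0721), and the F2 to F3 fall (-2.69 ± 0.92, adjusted p = 0.0254) without F2 replicate 1 (0.0683), F3 replicate 1 (0.0543) or F3 replicate 3 (0.0574) and with F2 and F3 fitted alone (0.0851). With limma on log2(FPKM + 1) the later fall was under 2-fold (-0.93).

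SAUR36 was the main exception to the decline. In Arabidopsis this protein promotes leaf senescence. Cluster-22734.0 stood at 26.1, 24.3 and 25.2 FPKM at F1, 51.3, 50.9 and 51.5 FPKM at F2 and 120.2, 127 and 116 FPKM at F3, each stage above the one before, with a log2 difference of 0.96 ± 0.063 (adjusted p = 3.45e-06), just under 2-fold, and 1.18 ± 0.062 (adjusted p = 3.35e-07). The second SAUR36 match (Cluster-29811.0) had 10.6, 10.5 and 13.1 FPKM at F1, 22.3, 19.3 and 22.3 FPKM at F2 and 68.2, 57.2 and 66.7 FPKM at F3 and rose between F1 and F3 by 2.37 ± 0.11 (adjusted p = 1.27e-07). SAUR72 (Cluster-39819.0) rose between F2 and F3 (2.23 ± 0.32, adjusted p = 0.000278), with 2.04, 2.49 and 1.86 FPKM at F1, 1.19, 0.8 and 1.43 FPKM at F2 and 6.05, 6.2 and 5.7 FPKM at F3. The fourth that rose between F1 and F3 was a SAUR32 match (Cluster-30691.0, 1.92 ± 0.33, adjusted p = 0.000656), which like the second SAUR36 cluster was picked after its values were seen. SAUR77 (Cluster-16178.0) rose between F1 and F2 (1.54 ± 0.25, adjusted p = 0.000961), with 4.27, 3.81 and 2.95 FPKM at F1, 10.1, 11.2 and 9.81 FPKM at F2 and 4.94, 7.74 and 5.55 FPKM at F3.

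Several GH3 amido synthetases join auxin to amino acids, which stores or inactivates it. The substrate of the GH3 clusters here, most of whose summed level is in GH3.10 matches, was not tested. Of 7 clusters, 1 rose and 2 fell between F1 and F2 (14.3% and 28.6%), 1 rose and 4 fell between F1 and F3 (14.3% and 57.1%), and 2 rose and 4 fell between F2 and F3 (28.6% and 57.1%). In all, 42.9%, 71.4% and 85.7% were called, against 40.8%, 69.7% and 65.3% of the table, so the first 2 shares are near the background. Their median between F1 and F2 was 0.16, and -0.01 with RLE scaling, so it has no settled direction. The sum was 180.3 to 183 FPKM at F1, 214 to 221 FPKM at F2 and 75.8 to 81.6 FPKM at F3. The 2 most abundant clusters match GH3.10, which takes part in light-dependent seedling growth in Arabidopsis. Cluster-39710.0 stood at 93.4, 91.2 and 91.6 FPKM at F1, 94.8, 105 and 97.2 FPKM at F2 and 30.8, 36.3 and 30.3 FPKM at F3, and Cluster-38867.1 at 74.3, 76.9 and 73.8 FPKM at F1, 95, 92.5 and 99.7 FPKM at F2 and 30.1, 31 and 31.9 FPKM at F3. Neither changed 2-fold between F1 and F2 (0.16 ± 0.095, adjusted p = 0.179 and 0.40 ± 0.061, adjusted p = 0.000651), and both fell after F2 (-1.77 ± 0.10, adjusted p = 5.01e-07 and -1.79 ± 0.063, adjusted p = 2.7e-08).

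Minor clusters of the same GH3.10 number moved in opposite directions. Cluster-39710.3 stood at 5.29, 2.52 and 4.85 FPKM at F1, 17.3, 15.8 and 17.4 FPKM at F2 and 2.45, 1.4 and 1.22 FPKM at F3, a peak at F2 (2.05 ± 0.29, adjusted p = 0.000396, then -3.48 ± 0.31, adjusted p = 1.17e-05). Cluster-39710.2 had its lowest level there, with 5.21, 5.58 and 5.61 FPKM at F1, 2.23, 2.42 and 2.36 FPKM at F2 and 4.98, 5.8 and 7.69 FPKM at F3 (-1.19 ± 0.19, adjusted p = 0.000761, then 1.24 ± 0.19, adjusted p = 0.000365). The number also holds 1 cluster named for another protein. GH3.1 (Cluster-46467.0), which conjugates indole-3-acetic acid in Arabidopsis, was the 1 GH3 cluster that rose between F1 and F3, with 1.3, 0.95 and 1.27 FPKM at F1, 1.43, 1.13 and 1.2 FPKM at F2 and 6.2, 5.53 and 5.3 FPKM at F3, a log2 fold change of 2.15 ± 0.20 (adjusted p = 1.18e-05).

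Influx carriers of the AUX/LAX family had 1 cluster that rose and 3 that fell between F1 and F2 (16.7% and 50% of 6), and 0 that rose and 4 that fell between F1 and F3 (66.7%), against 18.8% and 34.7% down in the table. Between F2 and F3, 0 rose and 2 fell (33.3%, near the 35.8% of the table). The sum was 83.6 to 94.5 FPKM at F1, 67.8 to 71 FPKM at F2 and 29.5 to 31.4 FPKM at F3. The 2 matches named auxin transporter-like protein 3 (LAX3-type), with separate numbers, moved apart early. Cluster-40299.0 stood at 34.2, 34.1 and 32.2 FPKM at F1, 4.42, 3.01 and 3.66 FPKM at F2 and 1.97, 2.04 and 2.52 FPKM at F3, a fall of -3.13 ± 0.15 (adjusted p = 6.32e-07) between F1 and F2, which was most of its change. Cluster-33043.0 rose over the same step (1.18 ± 0.16, adjusted p = 0.000272), with 11.3, 7.6 and 10.6 FPKM at F1, 20.8, 23.8 and 20.2 FPKM at F2 and 12.2, 11.5 and 12.3 FPKM at F3.

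The LAX2-type matches, of a carrier that acts in vein patterning in Arabidopsis, were also unlike. Cluster-58657.4, the most abundant influx carrier, held its level to F2 and fell after it, with 37, 33.4 and 40.6 FPKM at F1, 40.9, 40.4 and 39.7 FPKM at F2 and 15.7, 15.4 and 13.5 FPKM at F3 (-1.55 ± 0.081, adjusted p = 3.31e-07). Cluster-58386.2 fell at each step and stood at 6.75, 6.73 and 7.8 FPKM at F1, 2.42, 1.79 and 2.18 FPKM at F2 and 0.18, 0.26 and 0.31 FPKM at F3 (-1.69 ± 0.20, adjusted p = 0.00015 and -3.26 ± 0.24, adjusted p = 2.99e-06). Cluster-9532.17 was below 2 FPKM in every library and passed no test. LAX5 (Cluster-28769.0) had 2.15, 1.41 and 2.16 FPKM at F1, 0, 0.1 and 0.07 FPKM at F2 and 0 FPKM in each library at F3. From 95 fragments over the F1 libraries it went to 3 at F2, a ratio of 32.2 (counting interval 10.7 to 159), and to 0 at F3, at least 11.5-fold lower than F1.

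The PIN efflux carriers fell as a group between young and mature leaves. All 7 clusters fell between F1 and F3, with a median of -2.33, against 34.7% of the table. Between F1 and F2, 0 rose and 1 fell (14.3% down, near the 18.8% of the table). Between F2 and F3, 0 rose and 6 fell (85.7% down, against 35.8%), or 4 with RLE scaling or the implied library sizes. Vascular markers, 23 clusters, had summed means of 106, 51.4 and 22.7 FPKM at F1, F2 and F3, and their part in the PIN result was not tested. The summed level of the 7 PIN clusters was 67.9 to 72 FPKM at F1, 54.8 to 55.1 FPKM at F2 and 16.2 to 17.9 FPKM at F3. PIN3 (Cluster-49457.2), which redirects auxin during tropic growth, was the most abundant, with 31.4, 30.2 and 34.3 FPKM at F1, 16.9, 20.2 and 18.1 FPKM at F2 and 8.47, 9.75 and 10.3 FPKM at F3. Its fall between F1 and F3 was -1.87 ± 0.10 (adjusted p = 2.89e-07). The F2 to F3 part (-1.12 ± 0.10, adjusted p = 1.07e-05) was under 2-fold (-0.89 to -0.97) with DESeq2, RLE scaling, the implied library sizes, limma or F2 and F3 fitted alone.

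PIN5 and PIN8 sit in the endoplasmic reticulum in Arabidopsis rather than in the plasma membrane. PIN5 (Cluster-35455.0) stood at 17.4, 17.2 and 16.8 FPKM at F1, 25.9, 20.9 and 24.2 FPKM at F2 and 2.55, 3.24 and 3.28 FPKM at F3, highest at F2 though the early difference was under 2-fold (0.51 ± 0.13, adjusted p = 0.00876), and fell after it (-3.13 ± 0.14, adjusted p = 1.27e-07). PIN8 (Cluster-48019.0) had 2.99, 3.28 and 3.05 FPKM at F1, 2.47, 3.01 and 2.59 FPKM at F2 and 1.2, 1.05 and 0.74 FPKM at F3, with overlap between F1 and F2 and a fall after F2 (-1.40 ± 0.22, adjusted p = 0.000464). The 1 PIN that fell between F1 and F2 was a PIN6 match, named after its values were seen (Cluster-34734.0, -2.98 ± 0.46, adjusted p = 0.00161); it had 145 fragments over the F1 libraries, 18 at F2 and 0 at F3.

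The 2 auxin-binding protein clusters match ABP19a, a germin-like protein named from peach and distinct from the receptor candidate ABP1. They gave the steepest fall in summed level among the role groups. Cluster-30422.0 stood at 2622, 2780.3 and 2443 FPKM at F1, 332, 342 and 330.2 FPKM at F2 and 49, 44.2 and 41 FPKM at F3. The fall was -2.92 ± 0.083 (adjusted p = 3.8e-08) between F1 and F2 and -3.07 ± 0.084 (adjusted p = 6.67e-09) between F2 and F3. Cluster-37698.0 had 556, 596 and 536 FPKM at F1, 139.7, 131 and 120.3 FPKM at F2 and 33.3, 35.5 and 39.4 FPKM at F3, with -2.06 ± 0.091 (adjusted p = 3.43e-07) and -2.02 ± 0.093 (adjusted p = 1.44e-07). No libraries of different stages overlapped in either cluster.

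**Figure D4:**
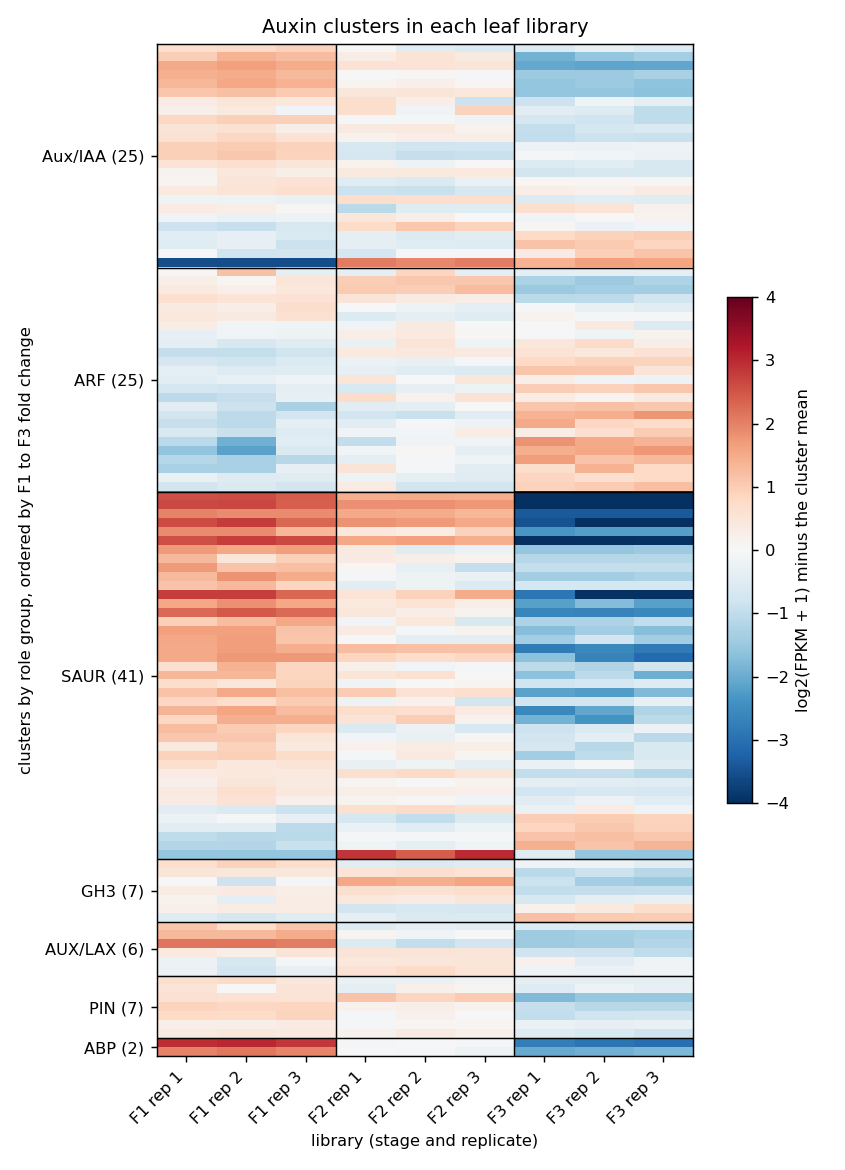
Log2(FPKM + 1) of all 113 auxin clusters (rows, by role group and ordered by F1 to F3 fold change) in the 9 libraries (columns), each row minus its own mean; red is above and blue below that mean, and colours end at 4 in each direction. Most SAUR rows are red at F1 and blue at F3, most ARF rows the reverse, and libraries of one stage look alike.

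Other genes of the pathway, taken as lists by name, did not all follow the fall. The summed level of genes named for auxin synthesis was highest at F2. Tryptophan aminotransferases and YUCCA enzymes act in succession to make auxin. Of 12 clusters named tryptophan aminotransferase-related (TAR) or YUCCA, 8 rose and 2 fell between F1 and F2, 4 rose and 3 fell between F1 and F3, and 4 rose and 5 fell between F2 and F3. Whether the TAR3 and TAR4 matches take part in auxin synthesis was not tested. The 66.7% up between F1 and F2 compares with 22% of the table. Between F1 and F3 the shares (33.3% up and 25% down) were near or below those of the table (35.0% and 34.7%), and between F2 and F3 they were 33.3% and 41.7%, against 29.5% and 35.8%. The synthesis sum was 84.8 to 88.5 FPKM at F1, 326 to 346 FPKM at F2 and 122 to 136 FPKM at F3. Most of the F2 level was in TAR4 matches of one number, with means of 129.6 FPKM (Cluster-52288.4) and 67.9 FPKM (Cluster-52288.2). A TAR2 match, picked after its values were seen, fell between F1 and F2 (Cluster-42316.0, -3.03 ± 0.37, adjusted p = 0.000167), with means of 10.2 and 1.32 FPKM. A TAR4 match (Cluster-52288.4) was the most abundant, with 11.4, 11.5 and 12.5 FPKM at F1, 129, 128 and 132 FPKM at F2 and 16.2, 14.9 and 15.4 FPKM at F3, a rise of 3.56 ± 0.089 (adjusted p = 2.38e-08) to F2 and a fall of -3.48 ± 0.089 (adjusted p = 4.4e-09) after it. YUCCA10 (Cluster-42469.3) rose between F1 and F2 (1.21 ± 0.079, adjusted p = 3.4e-06), with 29, 31.4 and 30.3 FPKM at F1, 73.5, 65.2 and 62 FPKM at F2 and 36.9, 39.3 and 44.9 FPKM at F3. The 12 clusters carry 5 numbers.

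Among 9 clusters of the receptor TIR1 and of the TOPLESS co-repressors, which Aux/IAA proteins recruit, 3 rose and 1 fell between F1 and F2 (1 and 1 with RLE scaling), 3 rose and 3 fell between F1 and F3, and 1 rose and 4 fell between F2 and F3. The shares called were 44.4%, 66.7% and 55.6%, near or below the 40.8%, 69.7% and 65.3% of the table. TIR1 itself was highest at F2: Cluster-33237.2 stood at 50.3, 46.8 and 53.5 FPKM at F1, 76.9, 72.8 and 76 FPKM at F2 and 17.7, 17.3 and 17.3 FPKM at F3, under 2-fold higher at F2 (0.62 ± 0.054, adjusted p = 2.14e-05) and with a fall to F3 (-2.29 ± 0.057, adjusted p = 3.96e-09). Cluster-33237.1 of the same number had 11, 8.59 and 13.1 FPKM at F1, 20.8, 20.4 and 21.8 FPKM at F2 and 5.34, 5.63 and 5.64 FPKM at F3.

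In the list for conjugate hydrolysis, all 10 clusters match hydrolases that free auxin from amino acid conjugates. Of these, 2 rose and 2 fell between F1 and F2, 4 rose and 3 fell between F1 and F3, and 5 rose and 2 fell between F2 and F3. The shares called (40%, 70% and 70%) were near those of the table (40.8%, 69.7% and 65.3%). ILR1 (Cluster-18842.2) fell between F1 and F2 (-2.04 ± 0.53, adjusted p = 0.0111), with 11.9, 13 and 10.8 FPKM at F1, 2.42, 2.61 and 3.29 FPKM at F2 and 3.21, 8.14 and 2.09 FPKM at F3. The ILR1 matches of this number did not move as one. Cluster-18842.1 rose in each comparison, with means of 0, 2.37 and 6.40 FPKM at F1, F2 and F3. Cluster-18842.3 had means of 3.82, 1.23 and 4.32 FPKM. Both were picked after their values were seen. ILL6 (Cluster-46789.0) rose between F2 and F3 (1.39 ± 0.16, adjusted p = 6.15e-05). Kinases that phosphorylate PIN carriers (PINOID and D6PKL names, 6 clusters) had 0 up and 3 down between F1 and F2, 1 up and 3 down between F1 and F3 and 1 up and 3 down between F2 and F3. The shares called were 50%, 66.7% and 66.7%, of 6 clusters, the last 2 near those of the table. D6PKL2 (Cluster-49148.5) fell between F1 and F2 (-1.11 ± 0.15, adjusted p = 0.000283), whereas a PINOID match (Cluster-49148.1) passed no test.

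Dormancy-associated proteins, related to an auxin-repressed protein of strawberry, rose late. Of 5 clusters, 1 rose between F1 and F2 and all 5 rose both between F1 and F3 and between F2 and F3, with 0 down, against 35.0% and 29.5% up in the table. The main one (Cluster-52601.0) stood at 119, 126 and 117 FPKM at F1, 165, 159 and 156 FPKM at F2 and 408, 409 and 369 FPKM at F3, a rise of 1.59 ± 0.071 (adjusted p = 9.02e-08) between F1 and F3, and Cluster-49969.1 rose by 1.35 ± 0.095 (adjusted p = 1.79e-06). Among 64 clusters of other transporters (PIN-LIKES, WAT1-related and ABCB names), 10 rose and 12 fell between F1 and F2, 16 rose and 28 fell between F1 and F3, and 21 rose and 32 fell between F2 and F3. The shares called were 34.4%, 68.8% and 82.8%, against 40.8%, 69.7% and 65.3% of the table, so that only the last lies well above the background. The sum of these transporters was 603 to 643 FPKM at F1, 481 to 483 FPKM at F2 and 1344 to 1433 FPKM at F3, and most of the F3 level was in WAT1-related matches of one number, named for a family whose founding member exports auxin from the vacuole in Arabidopsis. Of these, Cluster-20691.10 stood at 84.7, 78.1 and 86.9 FPKM at F1, 67.7, 77.2 and 64.2 FPKM at F2 and 553, 556 and 586 FPKM at F3 and Cluster-20691.8 had a mean of 83.3 FPKM at F1 and 527 FPKM at F3.

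Summed levels of cell type markers also differed between the stages. Those of dividing cells and vascular tissue were lower at each later stage, as the auxin sum was, whereas leaf mesophyll markers were highest at F2 and shoot apex and bud markers at F3. The leaf label held: 47 clusters of chlorophyll a-b binding proteins and the Rubisco small subunit summed to 70972 to 74877 FPKM at F1, 102987 to 104481 FPKM at F2 and 34157 to 35929.5 FPKM at F3, with 0 of them up and 33 down between F1 and F3. Of 8 markers of dividing cells, 8 fell between F1 and F2 and 7 between F1 and F3, and their sum was 12.4 to 14.4 FPKM at F1, 1.88 to 2.35 FPKM at F2 and 0.97 to 1.82 FPKM at F3, with 2 of them at 0 at F3. Of 23 vascular markers, 3 rose and 9 fell between F1 and F2 and 4 rose and 15 fell between F1 and F3, with sums of 100.3 to 112 FPKM at F1, 46.5 to 55.6 FPKM at F2 and 21.5 to 23.7 FPKM at F3 and 1, 0 and 2 at 0. Of 9 shoot apex and bud markers, 4 rose and 5 fell between F1 and F3, and they summed to 24.4 to 27.5 FPKM at F1, 13.2 to 14 FPKM at F2 and 45.2 to 46.1 FPKM at F3, with 0, 3 and 2 at 0. Between F1 and F3, 70.2% of mesophyll, 87.5% of dividing-cell, 65.2% of vascular and 55.6% of apex markers fell, against 34.7% of the table. Up were 0%, 0%, 17.4% and 44.4%, against 35.0%. Between F1 and F2, 100% of dividing-cell and 39.1% of vascular markers fell, against 18.8%, and 0% and 13% rose, against 22%. Between F2 and F3, 25% of dividing-cell and 60.9% of vascular markers fell, against 35.8%, and 12.5% and 4.35% rose, against 29.5%. The part of the lower dividing-cell and vascular marker levels in the falls of the SAUR, PIN, AUX/LAX and Aux/IAA clusters was not tested.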

How the data were processed

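Leaf RNA was sequenced by the authors as paired-end reads of 150 bases. How reads were assembled, aligned and counted is not given in the sources used here. Kits named in the labels differ from those of the methods, and the labels name a mouse genome build. The authors deposited one table with raw fragment counts per cluster and library and, from the same fragments, FPKM. FPKM is scaled for length and library size, but its length term is not always the printed cluster length. Its columns of log2 fold change, p-value, adjusted p-value and direction per comparison, made by the authors with DESeq2 1.16.1, were not used. No sequences were used here. Levels and sums are FPKM; tests used the counts as deposited.

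Counts were fitted with edgeR 4.0.16 in R 4.3.3 (TMM over all 24385 clusters, quasi-likelihood, 1 model of all 9 libraries, no filter), and the fit was checked on simulated data. The standard error is the log2 fold change over the square root of its F value. The F1, F2 and F3 groups were taken from the labels. The 113 clusters, the role groups and the lists were chosen with earlier results of these data known. Named clusters are the 4 of highest mean FPKM in each role group and all of groups of 6 or fewer, the 6 largest called changes per comparison and direction whose libraries do not overlap between the stages and which reach 5 FPKM in one of them, up to 6 called at both steps in opposite directions, and 2 per list. A few clusters that this rule picks are not reported here. Alternatives were DESeq2 1.42.0, RLE scaling, library sizes implied by FPKM, limma 3.58.1 on log2(FPKM + 1) and log2(FPKM + 0.1), a minimum of 1 FPKM, 2 stages alone, no fold threshold, a replicate block, leaving out each library, and clusters of one number summed. Intervals and floors cover counting error only. Differences between libraries of one stage exceeded counting noise (chi-square per degree of freedom 5.80 to 12.6), and none were merged.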

Additional observations from a re-analysis of the deposited data

How the results depend on the processing

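With the counts of clusters that share a number summed, 24 numbers were called between F1 and F2 (8 up, 16 down), 46 between F1 and F3 (9 up, 37 down) and 47 between F2 and F3 (10 up, 37 down), of 60, where there are fewer features to call. The sums include clusters of these numbers that are outside the auxin set. The matching shares over all numbers of the table are not given, so these counts are not set against a background. Between F1 and F2, limma on log2(FPKM + 1) gave 9 clusters up and the call without a fold threshold 25, against 15. Leaving out each library in turn gave 34 to 51 called between F1 and F2 (12 to 21 up, 22 to 35 down), with the lowest count without F1 replicate 2, 91 to 95 between F1 and F3 (24 to 26 up, 67 to 70 down) and 79 to 82 between F2 and F3 (19 to 20 up, 60 to 62 down). The replicate block called 40, 94 and 80, and without the call of Cluster-51899.0 between F1 and F2 (-2.22, adjusted p = 0.0592). Deviations of libraries with the same replicate number had correlations of -0.014 to 0.023 (9 pairs, median 0.013). Those of libraries with different numbers were -0.032 to 0.018 (18 pairs, median -0.004). With 3 libraries per stage, these values cannot tell whether a number stands for a tree. DESeq2 called 52, 93 and 79. Of 2484 alternative values for the 46 clusters that the naming rule picks, 2395 stayed on the same side of the call, 58 gained it, 31 lost it and none of the called values changed sign. Low counts limit the minor clusters: 43 of the 113 had a mean under 1 FPKM at F3.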
